A study of Mus musculus with 24 samples.

Results

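The 10 imprinted growth-control genes H19, Igf2, Dlk1, Meg3, Peg3, Cdkn1c, Mest, Plagl1, Ndn and Grb10 were followed in mammary tissue of tumour-prone and normal mice. They were chosen by symbol, as the rows of the gene count table whose Ensembl identifier carried those names in the GENCODE M1 annotation, and all 10 were found among 37991 genes. Total RNA was depleted of ribosomal RNA and sequenced with a directional protocol in 24 samples, each from a different mouse, 3 in each of 8 groups. The PyMT groups were F1 females heterozygous for the MMTV-PyMT transgene, from PyMT males and FVB females, taken at 6, 8, 10 and 12 weeks of age, which the study staged as hyperplasia, adenoma or mammary intraepithelial neoplasia, early carcinoma and late carcinoma. The FVB groups were female mice homozygous for the FVB background and without the transgene, at the same 4 ages, so both genotypes share the FVB strain. The transgene carries the polyoma virus middle T antigen behind the mouse mammary tumour virus long terminal repeat, which drives it in mammary epithelium. RNA came from unsorted frozen tissue of tumour or normal gland. By histology the study put most cells of its carcinoma samples down as tumour cells, with few stromal and muscle cells and rare inflammatory cells.

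An imprinted gene is read mainly from the copy inherited from one parent, and the choice is set by DNA methylation laid down in the germ line at control regions that often serve a whole cluster of genes. Paternally read genes of this kind tend to promote growth before birth and maternally read genes tend to restrain it, and many are turned down in most tissues after birth. In the mammary gland they are known from stromal, fat and progenitor cells. The counts here sum both parental copies, so they give the level of each gene and nothing on which copy was read.

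Total counts ran from 6969375 to 13516601 per library, with a median of 8280269. Levels are given as normalized counts, the deposited count divided by the DESeq2 size factor of its library, and a difference was called when the adjusted p of edgeR's quasi-likelihood test was under 0.05 and the fold change above 2. In 13 of the 24 libraries, 6 PyMT and 7 FVB, gene counts came in packets of 8 to 25 counts, seen as a peak in the number of genes at that count. FVB week 10 replicate 3 and PyMT week 8 replicate 2 had the most of 3799 mid-level genes at 0 (4.40% and 2.87%). Their packets were of 19 and 23 counts. The largest packets, of 25 counts, were in PyMT week 6 replicate 2 (1.66% at 0). FVB week 8 replicate 1 had packets of 18 (1.92% at 0). Skeletal muscle markers summed to over 100000 normalized counts in 4 FVB libraries (week 6 replicates 1 and 2, week 10 replicate 3 and week 12 replicate 1), against 75.5 to 34987.8 in the 12 PyMT libraries. The other FVB libraries ran from 122.5 to 5972.3. PyMT week 6 replicates 1 and 2 and week 10 replicate 3 lay above all of those, at 34987.8, 20201.6 and 29439.4. No PyMT library was left out, so fits without the 4 FVB libraries are not matched for muscle marker level. Differences of the members that gain or lose a call or change sign without these 4 FVB libraries are given both ways, a choice made after seeing the data. At week 6 this leaves 1 FVB sample, whose spread is then assumed to be that of the other samples.

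In PyMT tissue each of the 10 genes had a lower mean normalized count than in FVB at every age. With week as a block, all 9 genes that passed the filter on low counts were called lower in PyMT and 0 were called higher, where 17.2% of the 14918 genes tested were called lower and 8.51% higher. Their median log2 fold change was -2.46, beside -0.03 over all genes tested. The filter asked for a CPM of 1 in 12 samples, which FVB samples alone can meet. Igf2 met it through FVB, where it is high, as most of its PyMT counts fell short of that CPM. Dlk1, the gene left out by the filter, had a log2 fold change of -2.67 (SE 0.78) when a weaker filter let it in (edgeR adjusted p = 0.00748). In bulk tissue, fewer cells of a type and less RNA per cell cannot be told apart. Leaving out 1 library at a time, 8 of the 9 stayed called in all 24 fits, and Peg3 lost its call in 7, in which its log2 fold change was as small as -0.93 and short of the threshold.

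**Figure D1:**
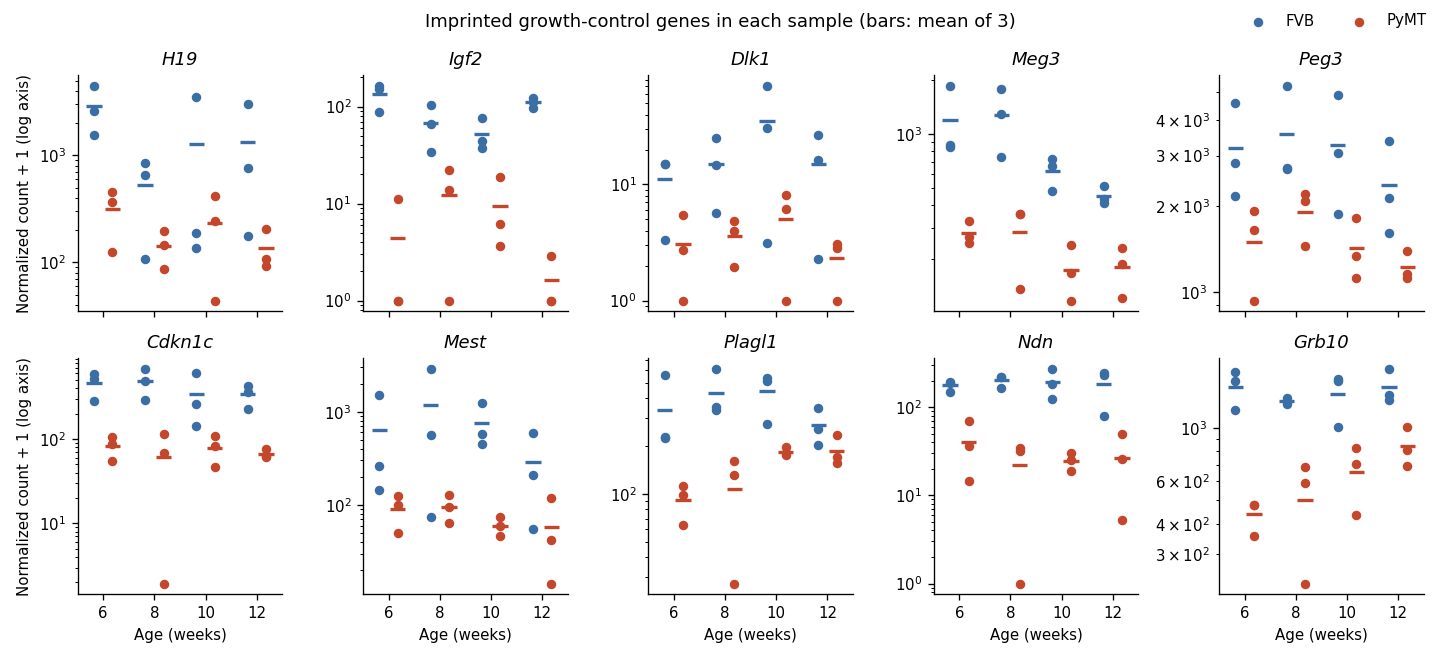
Normalized counts (plus 1, vertical log axis) of the 10 genes in each of the 24 samples, by week on the horizontal axis and genotype in colour, with bars at the mean of 3 samples. For Igf2, Meg3, Cdkn1c and Ndn every PyMT sample lies below every FVB sample, whereas the FVB values of H19 and Mest spread widely.

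Igf2 encodes the insulin-like growth factor that drives growth of the embryo, and lies on chr7:149836673-149852721 on the minus strand (mm9, ENSMUSG00000048583), read from the paternal copy. Its 12 FVB normalized counts were 163.4, 150.4 and 86.3 at week 6, 103.4, 32.6 and 64.4 at week 8, 74.7, 43.1 and 36.0 at week 10, and 110.3, 122.2 and 96.2 at week 12. In PyMT they were 0, 0 and 10.2, then 21.0, 0 and 12.9, then 2.67, 17.8 and 5.12, then 0, 0 and 1.85. The 12 PyMT values lay below the 12 FVB values without overlap, and 5 PyMT libraries held no count. A count of 0 allows up to 3 where reads are independent. That bound is too low in PyMT week 6 replicates 1 and 2, with packets of 14 and 25 counts. The same holds for PyMT week 8 replicate 2 and week 12 replicate 1, with packets of 23 and 12. Over 3 libraries each, raw counts in FVB and PyMT were 434 and 18 at week 6, a ratio per total count of 23.4 (95% interval 14.6 to 39.8), and 267 and 2 at week 12, a ratio of 125.5 (34.4 to 1042). At weeks 8 and 10 the ratios were 4.75 (3.39 to 6.78) and 5.60 (3.69 to 8.82). These intervals cover counting error only, and are too narrow where counts come in packets. The fitted difference averaged over the weeks was -4.06 on the log2 scale (SE 0.76), with an edgeR adjusted p of 9.26e-05. It was called at week 12 (-7.06, SE 0.93, adjusted p = 0.00120), a value whose size depends on the prior count added to 2 PyMT counts. The week 6 call (adjusted p = 0.0428) was lost without PyMT replicate 1 (0.0843) and without FVB replicate 1, 2 or 3 (0.105, 0.125 and 0.0731). Without the muscle-rich libraries the week 6 value was -4.55 (adjusted p = 0.474). The differences at weeks 8 and 10 did not pass (adjusted p = 0.261 and 0.182).

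H19, a maternally read non-coding RNA and host of miR-675, lies 72.6 kb from Igf2 in the same cluster, on chr7:149761434-149764048 (minus strand, ENSMUSG00000000031), and both depend on a shared control region with opposite parental activity. Its FVB normalized counts were 4494.5, 2603.9 and 1539.1 at week 6, 107.2, 839.7 and 650.9 at week 8, 135.8, 185.4 and 3517.9 at week 10, and 3021.5, 761.2 and 177.1 at week 12. The PyMT values ran from 43.0 to 454.0 with a median of 171.5. They lay below FVB without overlap at week 6 alone. The 4 muscle-rich FVB libraries held the 4 highest H19 values of all 24, from 2603.9 to 4494.5. With all libraries the log2 fold change of H19 over the weeks was -2.69 (SE 0.54, edgeR adjusted p = 0.000179), and it was -1.39 (SE 0.47, adjusted p = 0.0181) without those 4. The week 6 call (-3.22, adjusted p = 0.00876) became -2.29 with adjusted p = 0.0525 when only FVB replicate 3 was left. At week 12 (-3.25, adjusted p = 0.0275) the call was lost without FVB replicate 1 (-1.76, adjusted p = 0.0651) and without PyMT replicate 1, 2 or 3 (0.0581, 0.0969 and 0.107). At week 10 the difference of -2.35 (adjusted p = 0.266) turned to 0.61 without FVB replicate 3. That fit kept PyMT replicate 3, which held the highest PyMT H19 value of the week (417.1). Its muscle markers summed to 29439.4, against 201.2 and 129.3 in the FVB libraries left. The week 8 difference of -1.88 did not pass (adjusted p = 0.116), and passed without FVB replicate 1 (-2.35, adjusted p = 0.0106).

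**Figure D2:**
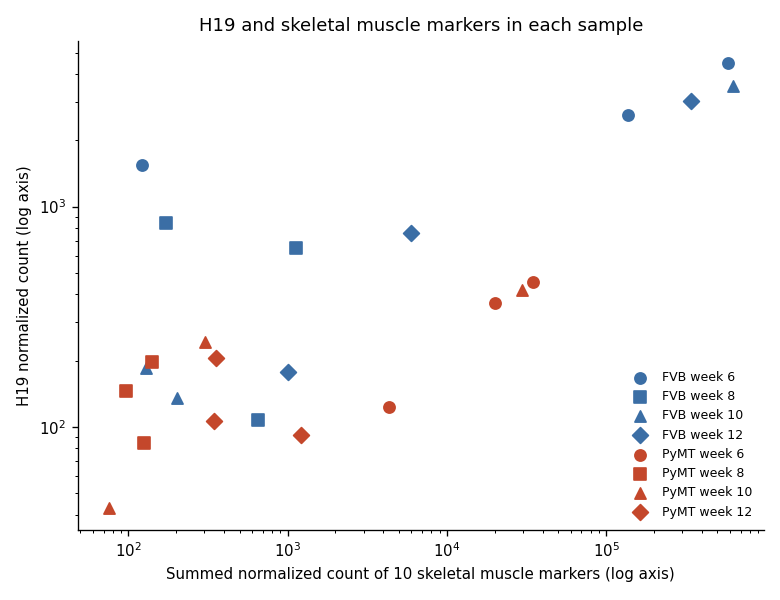
H19 normalized count against the summed normalized counts of 10 skeletal muscle markers in each of the 24 samples, both axes logarithmic, with genotype as colour and week as point shape. The 4 FVB libraries above 100000 on the horizontal axis hold the 4 highest H19 values, from 2603.9 to 4494.5.

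Igf2 had the most CpG-rich start among the 4 members shown here by sequence, chosen because 3 of them separated the genotypes in every sample and Peg3 carried the motif described for Plagl1. The window runs over the 250 bases before its most CpG-rich listed start site, chr7:142658805-142659054 on the minus strand of GRCm38.p6, a different build from the mm9 of the counts, and holds 22 CpG pairs (capitals), more than in 85.2% of 32851 windows of that length. The RefSeq tables gave 15 such windows for 8 members (not H19 and Cdkn1c), with a median of 8 CpG pairs, against 6 over all windows.
Igf2: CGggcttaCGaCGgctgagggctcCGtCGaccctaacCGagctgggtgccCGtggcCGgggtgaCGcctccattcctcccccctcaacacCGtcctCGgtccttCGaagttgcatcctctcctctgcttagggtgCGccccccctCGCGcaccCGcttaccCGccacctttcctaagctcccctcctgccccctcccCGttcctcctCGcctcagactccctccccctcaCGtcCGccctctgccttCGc

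The mature miRNAs hosted by H19 and Mest are shown because they are cut from transcripts of these genes. Their seeds, bases 2 to 8 from the 5′ end, are in capitals, and they differ from each other. They lie on GRCm38.p6 at chr7:142577112-142577133 and chr7:142577078-142577099 (minus strand, miR-675-5p and miR-675-3p) and at chr6:30741314-30741336 and chr6:30741354-30741375 (plus strand, miR-335-5p and miR-335-3p). The miRNAs themselves were not measured here.
miR-675-5p: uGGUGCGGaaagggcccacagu
miR-675-3p: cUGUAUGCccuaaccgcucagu
miR-335-5p: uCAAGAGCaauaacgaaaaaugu
miR-335-3p: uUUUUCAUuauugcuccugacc

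Dlk1 and Meg3 make up a second cluster, 77.7 kb apart on chromosome 12. Dlk1 (chr12:110691033-110701546, plus strand, ENSMUSG00000040856), a paternally read transmembrane protein of preadipocytes that resembles Notch ligands, was low throughout. Its FVB normalized counts ran from 1.26 to 70.1 with a median of 14.0, and its PyMT normalized counts from 0 to 7.12 with a median of 1.95. Raw counts in FVB and PyMT were 31 and 8, 35 and 10, 92 and 14, and 34 and 4 at the 4 ages, and the ratio per total count ran from 3.75 (95% interval 1.69 to 9.45) at week 6 to 7.99 (2.85 to 31.0) at week 12. These intervals cover counting error only and not the spread between mice. Of the 92 FVB counts at week 10, 70 came from replicate 2. At weeks 6, 10 and 12 the sample ranges of the genotypes overlapped. With the weaker filter the edgeR adjusted p was between 0.226 and 0.555 at the single weeks.

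Meg3 (chr12:110779211-110809936, plus strand, ENSMUSG00000021268), a maternally read long non-coding RNA known to restrain growth, was lower in every PyMT sample than in every FVB sample. The FVB normalized counts were 862.3, 839.9 and 1855.4 at week 6, 743.0, 1771.2 and 1284.9 at week 8, 477.9, 661.3 and 724.6 at week 10, and 430.5, 509.1 and 410.1 at week 12. The PyMT normalized counts were 263.5, 325.4 and 244.5, then 135.5, 357.2 and 357.0, then 116.6, 237.9 and 166.3, then 229.3, 188.0 and 121.1. The highest PyMT value, 357.2, and the lowest FVB value, 410.1, thus bounded the gap between the genotypes. Meg3 was the only member called at all 4 weeks, with log2 fold changes of -2.10 (SE 0.33, edgeR adjusted p = 0.00651), -2.15 (SE 0.45, 0.0227), -1.79 (SE 0.31, 0.00740) and -1.28 (SE 0.27, 0.00898), and -1.85 (SE 0.19, 2.50e-08) over the weeks. The week 8 call was lost without PyMT replicate 1 (adjusted p = 0.0601) or 3 (0.0510) and without FVB replicate 2 (0.0791) or 3 (0.0576). Further along the cluster the non-coding RNA Rian had a log2 fold change of -1.42 over the weeks (SE 0.24, adjusted p = 3.13e-05), Mirg differed by -1.36 without passing (adjusted p = 0.238), and Rtl1 and Dio3 were too low to test. The more CpG-rich of 2 listed windows before Meg3 starts, chr12:109540746-109540995 on the plus strand (GRCm38.p6), holds 10 CpG pairs in capitals, and the other holds 0.
Meg3: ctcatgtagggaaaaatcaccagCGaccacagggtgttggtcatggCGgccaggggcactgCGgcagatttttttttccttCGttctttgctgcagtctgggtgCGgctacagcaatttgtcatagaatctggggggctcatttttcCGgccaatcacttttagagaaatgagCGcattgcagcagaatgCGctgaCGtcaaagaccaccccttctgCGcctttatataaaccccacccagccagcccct

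Cdkn1c encodes a maternally read cyclin-dependent kinase inhibitor that holds cells out of the cycle, and lies 791.5 kb from Igf2 (chr7:150644255-150646955, minus strand, ENSMUSG00000037664). Its FVB normalized counts ran from 143.0 to 685.9 with a median of 392.7, and its PyMT normalized counts from 0.938 to 115.4 with a median of 71.2. All 12 PyMT values lay below all 12 FVB values. The lowest, 0.938, came from PyMT week 8 replicate 2, the library with packets of 23 counts, in which Plagl1 (26.3), Ndn (0) and Grb10 (225.0) also had their lowest values of the 24. Over the weeks Cdkn1c had a log2 fold change of -2.46 (SE 0.35, edgeR adjusted p = 2.91e-06). It was called at week 6 (-2.49, SE 0.39, adjusted p = 0.00641) and week 12 (-2.30, SE 0.31, adjusted p = 0.00131). The week 10 call (-2.06, adjusted p = 0.0487) was lost without any of PyMT replicates 1 to 3 and FVB replicates 2 and 3, with adjusted p between 0.0730 and 0.147 (-1.33 and 0.0924 without FVB replicate 3, the muscle-rich library of that week). At week 8 the difference of -2.96 (adjusted p = 0.105) passed without PyMT replicate 2 (0.0294). The related inhibitor Cdkn1b, which is not imprinted, was higher by 0.59 over the weeks (adjusted p = 1.56e-05), below the fold threshold.

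Peg3 and Plagl1 are paternally read zinc finger proteins, the former known in p53-linked cell death and the latter a regulator of other imprinted genes. Peg3 (chr7:6656603-6683132, minus strand, ENSMUSG00000002265) had normalized counts between 1608.9 and 5275.1 in FVB, with a median of 2768.8, and between 931.3 and 2193.8 in PyMT, with a median of 1417.7. The ranges did not overlap within any week, while over all ages they did. It was the member with the smallest average difference, -1.02 (SE 0.17, edgeR adjusted p = 2.97e-05), and was not called at any single week, with adjusted p of 0.0890, 0.113, 0.0625 and 0.0368 and, at week 12, a log2 fold change of -0.91, short of the threshold. Leaving out FVB replicate 1 gave it a call at week 10 (adjusted p = 0.0290) and at week 12 (0.00877), and leaving out FVB replicate 2 gave it one at week 12 (0.0350). Without the muscle-rich libraries it was called at week 6 (-1.60, adjusted p = 0.0364). Zim1, its neighbour in the cluster, had a log2 fold change of -3.49 over the weeks (SE 0.58, adjusted p = 2.25e-05), and Usp29 was too low to test. The window before the start of Peg3, chr7:6730420-6730669 on the minus strand (GRCm38.p6), holds 8 CpG pairs in capitals and, from base 50 of its 5′ end, the motif GGGGCCCC described for Plagl1, which reads the same on both strands.
Peg3: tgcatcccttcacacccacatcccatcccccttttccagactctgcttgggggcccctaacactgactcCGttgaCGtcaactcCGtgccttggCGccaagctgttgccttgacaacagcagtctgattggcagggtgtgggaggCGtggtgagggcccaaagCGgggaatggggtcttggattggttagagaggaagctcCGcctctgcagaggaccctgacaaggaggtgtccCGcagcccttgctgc

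That motif was in 1 of the 15 member windows and in 292 of 32851 windows (0.889%). The YY1 motif GCCATNTT, or AANATGGC on the other strand, was in 0 of the 15 and in 1284 windows (3.91%). These are matches of letters in the windows before the start sites, and say nothing on binding.

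Plagl1 (chr10:12810497-12851500, plus strand, ENSMUSG00000019817) had FVB normalized counts of 223.7, 227.5 and 558.6 at week 6, 336.8, 350.1 and 614.8 at week 8, 273.1, 534.1 and 514.9 at week 10, and 201.8, 257.1 and 348.8 at week 12. The PyMT normalized counts were 62.3, 98.0 and 110.6, then 160.3, 26.3 and 131.2, then 178.8, 174.0 and 195.3, then 168.6, 235.1 and 156.2. The groups were apart at the first 3 ages and overlapped at week 12. Over the weeks Plagl1 had a log2 fold change of -1.41 (SE 0.26, edgeR adjusted p = 8.49e-05). The week 6 call (-1.89, adjusted p = 0.0307) was lost without PyMT replicate 1, 2 or 3 (0.110, 0.0645 and 0.0764) or FVB replicate 3 (0.140). The week 10 call (-1.21, adjusted p = 0.0355) was lost without any of PyMT replicates 1 to 3 and FVB replicates 2 and 3 (0.0502 to 0.123). At week 8 the difference of -2.0 (adjusted p = 0.0788) passed without PyMT replicate 2 (0.0469). At week 12 it was -0.48 (SE 0.29, adjusted p = 0.257).

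Mest (chr6:30673547-30698457, plus strand, ENSMUSG00000051855), a paternally read protein of the hydrolase fold that rises with fat tissue expansion, overlaps Copg2 on the other strand. Copg2 held 16679 counts over the 24 samples and differed by 0.35 on the log2 scale over the weeks, and since the strand setting of the counting is not given in the sources used here, reads of the overlap cannot be placed. Mest had FVB normalized counts of 144.9, 260.7 and 1514.5 at week 6, 73.2, 566.4 and 2900.9 at week 8, 578.6, 1246.5 and 446.0 at week 10, and 53.8, 210.5 and 589.4 at week 12. PyMT normalized counts ran from 13.4 to 127.0 with a median of 68.0. The FVB values spread from 53.8 to 2900.9, and the ranges overlapped at weeks 8 and 12. Over the weeks Mest had a log2 fold change of -3.09 (SE 0.51, edgeR adjusted p = 2.06e-05), and at week 10 it was -3.63 (SE 0.45, adjusted p = 0.00174). The differences of -2.80, -3.61 and -2.27 at weeks 6, 8 and 12 did not pass (adjusted p = 0.0692, 0.0747 and 0.106), and each passed without FVB replicate 1 of its week (0.0212, 0.0118 and 0.0370). Without the muscle-rich libraries the week 6 value was -4.04 (adjusted p = 0.00256).

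Ndn encodes necdin, a paternally read protein of the MAGE family that holds back cell division in neurons and fat precursors (chr7:69493163-69494814, plus strand, ENSMUSG00000033585). Its FVB normalized counts ran from 79.4 to 273.8 with a median of 190.7, and its PyMT normalized counts from 0 to 68.8 with a median of 27.1. No PyMT value reached the lowest FVB value. Over the weeks it had a log2 fold change of -2.79 (SE 0.42, edgeR adjusted p = 5.46e-06), and at week 10 it was -2.98 (SE 0.54, adjusted p = 0.00846). The week 12 call (-2.77, adjusted p = 0.0295) was lost without FVB replicate 1 (0.0670), FVB replicate 3 (0.0882) or PyMT replicate 3 (0.0995). At weeks 6 and 8 the differences of -2.18 and -3.18 (adjusted p = 0.0542 and 0.0989) passed without PyMT replicate 2 (0.0242 and 0.0157). Among genes near it in the same cluster, Snrpn differed by 0.06 (SE 0.28, adjusted p = 0.874) and Ube3a by 0.25 (SE 0.09, adjusted p = 0.0218), below the fold threshold, while Mkrn3 differed by -1.33 without passing (0.259) and Magel2 and Peg12 were too low to test. The window before the start of Ndn, chr7:62348027-62348276 on the plus strand (GRCm38.p6), holds 5 CpG pairs in capitals.
Ndn: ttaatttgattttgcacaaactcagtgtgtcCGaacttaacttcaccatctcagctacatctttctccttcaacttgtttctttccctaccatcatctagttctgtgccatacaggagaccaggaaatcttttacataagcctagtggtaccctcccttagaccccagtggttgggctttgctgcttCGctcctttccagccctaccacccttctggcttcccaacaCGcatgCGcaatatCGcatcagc

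Grb10 (chr11:11830511-11938686, minus strand, ENSMUSG00000020176) encodes an adaptor that binds the insulin and insulin-like growth factor receptors and damps their signal, and is read from the maternal copy in most tissues. Its FVB normalized counts were even, from 1004.0 to 1766.0 over the 12 samples with a median of 1346.3. In PyMT they were 479.0, 355.6 and 476.0 at week 6, 589.6, 225.0 and 689.9 at week 8, 435.1, 828.9 and 709.7 at week 10, and 694.0, 1010.7 and 810.5 at week 12. The genotypes were apart within every week, and over all samples 1 PyMT value, 1010.7, exceeded the lowest FVB value. The difference was -1.77 at week 6 (SE 0.22, edgeR adjusted p = 0.00301) and -0.77 at week 12 (SE 0.20, adjusted p = 0.0246), the latter under the fold threshold, and -1.23 over the weeks (SE 0.17, adjusted p = 1.21e-06). The week 10 call (-1.02, adjusted p = 0.0432) was lost without any of PyMT replicates 1 to 3 and FVB replicates 2 and 3 (0.0590 to 0.123). At week 8 the difference was -1.34 (adjusted p = 0.0663).

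**Figure D3:**
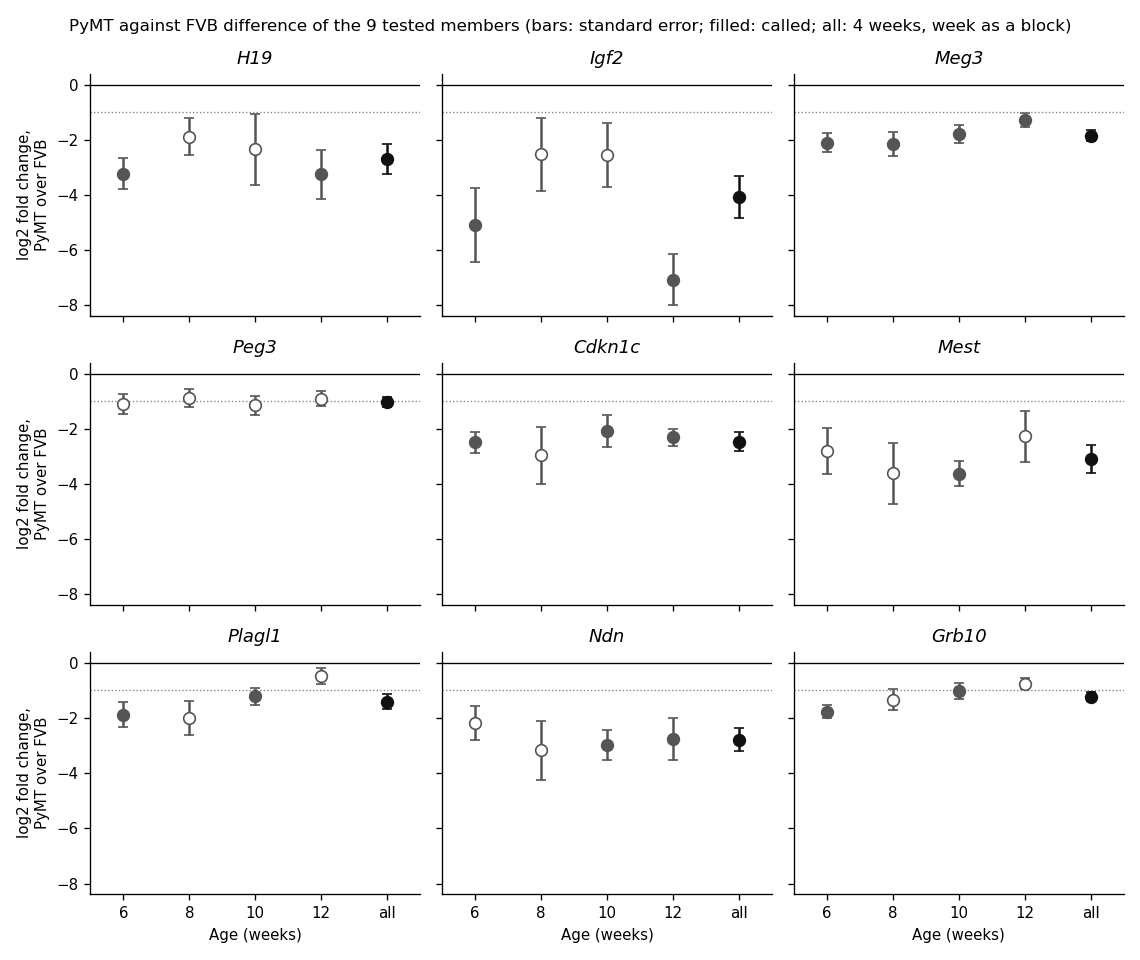
Log2 fold change of PyMT against FVB (vertical axis) with its standard error for the 9 tested genes at each week and with week as a block (horizontal axis), filled points marking calls. All points lie below 0, of which H19 at week 10 becomes 0.61 without FVB replicate 3, and all 9 are filled with week as a block.

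Counted by week, 6 of the 9 tested members were called lower in PyMT at week 6, where 6.46% of all genes tested were, and 3.58% were called higher. At week 8 the count was 1 of 9, Meg3, against 6.37% of all genes. At week 10 it was 6 of 9 against 9.09%, and at week 12 it was 5 of 9 against 13.0%. No member was called higher at any week, where 3.57%, 4.83% and 7.75% of all genes were at weeks 8, 10 and 12. The smaller count at week 8 came with adjusted p between 0.0663 and 0.261 for the other 8 members, all with negative log2 fold changes. Without the muscle-rich libraries the counts were 3 at week 10 and 5 at week 12, where 1412 and 1567 of 14918 genes tested were called lower. With week as a block the count was 9, where 2217 genes were called lower. At week 6 this left 1 FVB sample, and the log2 fold changes were -2.29 for H19, -4.55 for Igf2, -1.60 for Peg3 and -4.04 for Mest. All 3 PyMT samples lay below all 3 FVB samples for 9 of the 10 members at week 6 (20.4% of all genes tested), 8 at week 8 (21.7%), 8 at week 10 (21.6%) and 6 at week 12 (25.2%). Over all 24 samples this held for Igf2, Meg3, Cdkn1c and Ndn, where 7.22% of all genes tested did so. In all 10 genes the 4 FVB group means exceeded the 4 PyMT group means, while neighbouring groups in the order of means overlapped in all 7 pairs for H19, Dlk1, Peg3 and Mest, in 4 of 7 for Meg3 and in 6 of 7 for the other 5.

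No member was called for a change with age. Between week 6 and week 12, none of the 9 was called in FVB, where 0% of all genes tested were, and none in PyMT, where 0.389% were. At an unadjusted p under 0.05 there was 1 member in FVB (820 genes of all tested) and 3 in PyMT (1414 genes). In FVB, Meg3 had a log2 change of -1.43 (SE 0.33), with an edgeR adjusted p of 0.857 and, by DESeq2, of 0.0158. In PyMT, Grb10 had a log2 change of 0.97 (SE 0.21, adjusted p = 0.0813), Plagl1 of 1.07 (SE 0.39, adjusted p = 0.386) and H19 of -1.19 (SE 0.46, adjusted p = 0.429). Over 15 alternatives the Grb10 change was 0.80 to 1.10 without a call. In at least 1 of them its adjusted p was under 0.05 and only the fold fell short. In PyMT with age 8 of 10 skeletal muscle markers were called lower (median log2 change -5.16). Their part in the H19 value was not tested. The change of the genotype difference from week 6 to week 12 was called for 0 members and for 0% of all genes in edgeR. Grb10 had the only unadjusted p under 0.05 among the 9 (0.99, SE 0.44, unadjusted p = 0.0360, adjusted p = 1.00), against 691 of all genes tested.

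Per kilobase of exon, H19 had the highest mean level in FVB, at 633.6 normalized counts per kb, followed by Peg3 at 232.9, Cdkn1c at 210.3, Mest at 181.7, Grb10 at 154.0 and Ndn at 113.9. Plagl1 (50.8), Meg3 (48.7), Igf2 (16.4) and Dlk1 (3.19) were lower per kb. In PyMT the highest levels per kb were those of Peg3 (113.5), H19 (87.1) and Grb10 (66.4), and the lowest again those of Igf2 (1.09) and Dlk1 (0.442). Some middle ranks moved when the longest transcript replaced the summed exons, with Cdkn1c passing from rank 3 to rank 5 in FVB.

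**Figure D4:**
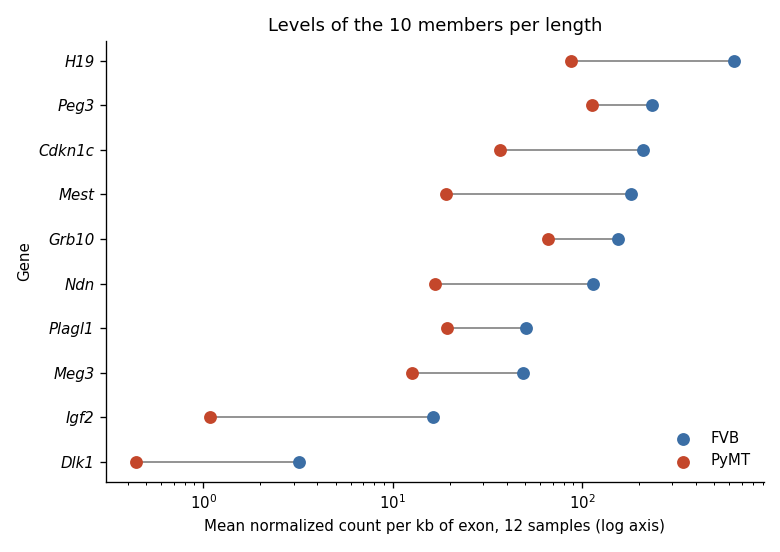
Mean normalized count per kilobase of exon (horizontal log axis) of each of the 10 genes in 12 FVB and 12 PyMT samples. Every FVB point lies to the right of its PyMT point, from 633.6 against 87.1 for H19 to 3.19 against 0.442 for Dlk1.

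Markers of cell types also moved with genotype. Adipocyte markers summed to 1013.5 to 15456.5 normalized counts in PyMT and to 46491.7 to 129894.9 in FVB, and with week as a block 8 of 8 were called lower. Fibroblast markers (8 of 8 called lower, 11918.8 to 25282.7 in PyMT against 30805.7 to 104782.4) and endothelial markers (7 of 7, 716.3 to 2063.9 against 4623.9 to 8353.5) were also apart in all samples. Of the 8 luminal epithelial markers 7 were called higher (24490.9 to 43597.5 against 3582.1 to 18792.9), as were 6 of 6 proliferation markers (5976.8 to 11303.7 against 276.3 to 6492.8). Basal markers were called lower in 4 of 7 (1278.1 to 5910.6 against 4483.5 to 15675.0), skeletal muscle markers in 9 of 10, and macrophage markers in 0 of 7 (2110.4 to 4635.6 against 2418.4 to 6305.1; edgeR, with 2 at an unadjusted p under 0.05 and 2 called lower at week 10), while the 6 lymphocyte markers were too low to test (0 to 52.5 against 0 to 117.3). No marker was at 0 in all samples of a genotype, and the part of these cell types in the results on the members was not tested. Within each genotype, relations over 12 samples were taken between a member and the mean log2 level of a marker list, not its sum. The 180 relations gave 10 with an unadjusted Pearson permutation p under 0.05 and 0 with an adjusted p under 0.05. The lowest adjusted p, 0.443, was shared by 5 relations. They were H19 with skeletal muscle markers in PyMT and in FVB (permutation p = 0.00422 and 0.00601), Ndn with endothelial markers, Cdkn1c with adipocyte markers and Ndn with adipocyte markers, the last 3 in PyMT. The muscle marker level falls into separate clusters of libraries, so no pooled r is given for H19. For Ndn with adipocyte markers Spearman's rho was 0.699 (permutation p = 0.0149) and Pearson's r 0.759 (permutation p = 0.0103), and the latter dropped to 0.363 once the 2 samples of most extreme marker level were left out. In the same way r dropped from 0.701 to 0.259 for Ndn with endothelial markers, and from 0.773 to 0.307 for Cdkn1c with adipocyte markers. Their rho over 12 samples was 0.685 and 0.469. The PyMT week 8 replicate 2 library had the lowest adipocyte and endothelial marker levels in PyMT (6.1 and 6.44).

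Of 45 other imprinted genes listed, 42 were in the table and 28 passed the filter. With week as a block 9 were called lower and 1 higher, where 17.2% and 8.51% of all genes tested were. The list had a median of -0.60 on the log2 scale, beside -0.03 over all genes tested. At week 12 the counts were 8 and 0, where 13.0% and 7.75% of all genes tested were called, and the list had a median of -0.58. The 4 with the largest decreases at week 12 were the amino acid transporter Slc38a4 (-4.80, SE 0.93, edgeR adjusted p = 0.00666), Nap1l5 (-4.78, SE 1.09, 0.0135), the sarcoglycan Sgce (-4.18, SE 0.50, 0.000849) and the zinc finger gene Zim1 (-4.11, SE 1.03, 0.0200). The call of Nap1l5 was lost without PyMT replicate 3 (0.0611), and that of Zim1 without PyMT replicate 3 (0.0813) or FVB replicate 3 (0.0842). Igf2r, the receptor that takes Igf2 to the lysosome and is read from the maternal copy, was the one called higher over the weeks. Its normalized counts ran from 3515.1 to 7040.5 in the 12 PyMT samples and from 1875.8 to 2820.0 in the 12 FVB samples, without overlap, a log2 difference of 1.06 (SE 0.10, adjusted p = 8.32e-09). By week the log2 difference was 1.18, 1.31, 0.90 and 0.88, and over the weeks it was 0.98 with limma voom, just short of the fold threshold.

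Of 12 partners and relatives of the members, 10 were tested, and with week as a block 4 were called lower (Igf1r, Igf2bp2, Grb14 and Plag1) and 1, Igf2r, higher. Of all genes tested 17.2% were called lower and 8.51% higher. Without the muscle-rich libraries Grb14 no longer passed (-0.93). At week 12, 4 were called lower and 0 higher, where 13.0% and 7.75% of all genes tested were. Igf1r, the receptor through which Igf2 signals, had normalized counts of 86.8 to 258.7 in the 12 PyMT samples and of 485.9 to 886.2 in the 12 FVB samples, and had a log2 fold change of -1.79 at week 12 (SE 0.24, edgeR adjusted p = 0.00124). The insulin receptor Insr had a log2 fold change of -1.25 (SE 0.17, adjusted p = 0.00158), and was no longer called when library size alone was used for scaling (-0.91). The RNA-binding protein Igf2bp2, which binds Igf2 transcripts, had a log2 fold change of -4.51 (SE 0.87, adjusted p = 0.00666). Plag1, a zinc finger relative of Plagl1, had PyMT normalized counts of 0 to 0.924 at week 12 against 44.8 to 54.2 in FVB (edgeR adjusted p = 0.00359).

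**Figure D5:**
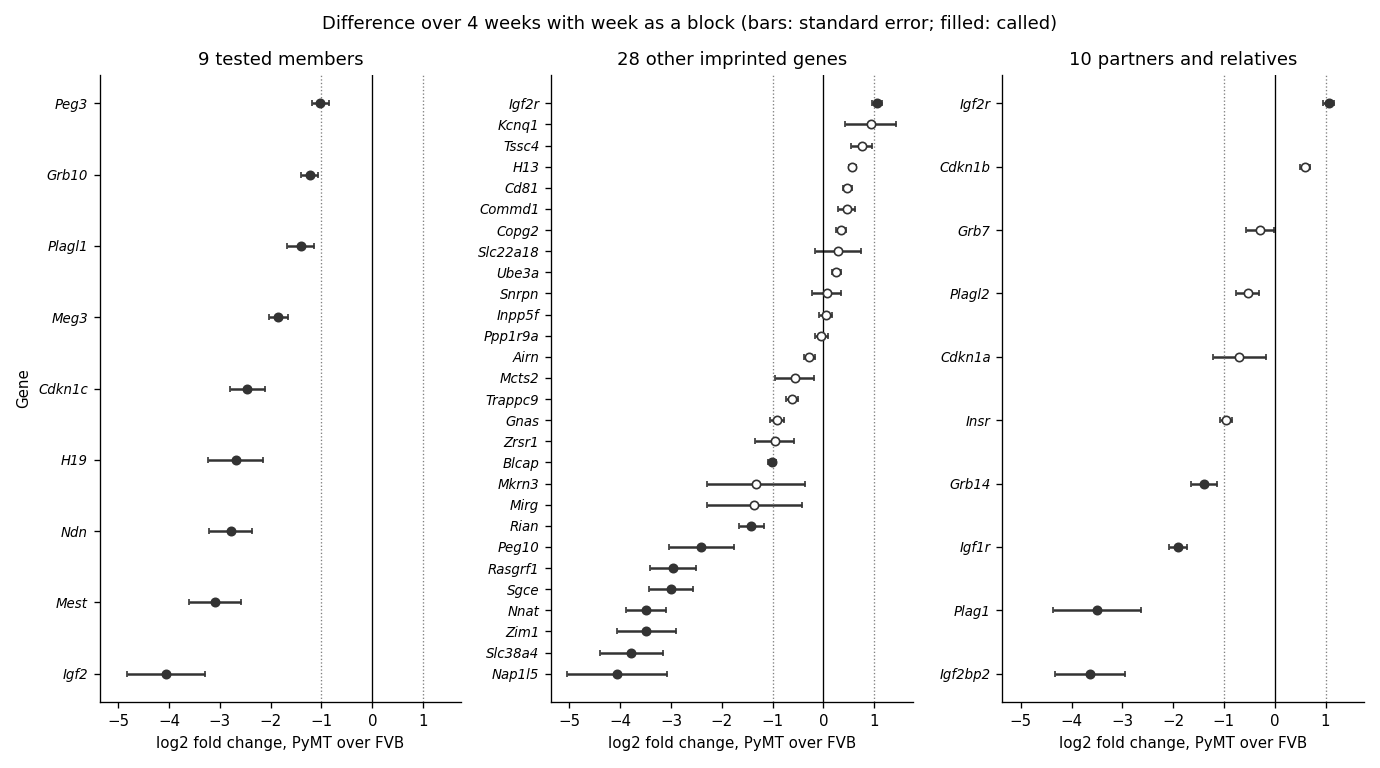
Log2 fold change of PyMT against FVB with week as a block (horizontal axis) for the tested members, other imprinted genes and partners (vertical axis), filled points marking calls. The 9 members all lie left of 0, while Igf2r lies to the right at 1.06.

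The genes most like each member, by Pearson's r of log2(normalized count + 1) over the 24 samples, are given as a description, since the samples share the genotype difference. For H19 they were the muscle genes Asb2 (0.878), Pdlim3 (0.865) and Alpk3 (0.859). For Igf2 they were Capn8 (0.940), Emx2os (0.933) and Ang (0.924), and for Meg3 Sparc (0.892), Pard3b (0.887) and Tsc22d1 (0.883). Peg3 was most like Nisch (0.877), Wwtr1 (0.859) and Col4a1 (0.854), and Mest most like Mycbp2 (0.864), the collagen Col1a1 (0.850), which is on the fibroblast list, and Ppic (0.850). Cdkn1c was most like Cntln (0.966), Srgap1 (0.939) and Dram1 (0.938), and Ndn most like Tmem45b (0.955), Ablim3 (0.950) and Adcy4 (0.945). Zfp423, a zinc finger gene of fat precursors, headed the list of both Plagl1 (0.916) and Grb10 (0.918), followed by Arl8a (0.877) and Srpx2 (0.875) for the former and by Plod1 (0.911) and Peli2 (0.907) for the latter.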

How the data were processed

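The authors used GSNAP for alignment to the mouse genome mm9 and HTSeq for counting, and the deposited values are raw counts per gene for the 24 samples in 1 table. The strand setting of the counting is not given in the sources used here. Counts were tested with edgeR 4.0.16 (quasi-likelihood test, TMM scaling, R 4.3.3) on genes that reached a CPM of 1 in 12 or more of 24 samples, with Benjamini-Hochberg adjustment over all genes tested. PyMT was compared with FVB at each week (3 against 3 samples), over all weeks with week as a block, between weeks 6 and 12 within a genotype, and for the change of the difference. Gene symbols and coordinates come from GENCODE M1 (mm9), and printed promoter and miRNA sequences from RefSeq (GRCm38.p6).

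Levels are counts divided by DESeq2 1.42.0 size factors, and the SE is the log2 fold change over the square root of F. Between replicates the chi-square per gene was 20.4 to 238.0 in 24 pairs, more than the sampling noise of independent reads. Packets of counts raise this value too, so it does not show how far the mice differed. All 24 samples were kept. Each sample is a separate mouse. Per-sample columns left unused numbered 0. Alternatives were DESeq2, limma 3.58.1 voom with sample weights, edgeR's exact test, other scalings and filters, a replicate block, all samples in 1 fit, leaving out each sample and, chosen after seeing the data, leaving out 4 muscle-rich libraries. Figures used matplotlib 3.10.9, and tables pandas 2.3.3.

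The members and gene lists were chosen with earlier results of these data known. Named are all members, listed genes of the Dlk1, Peg3 and Ndn clusters, Igf2r, the 4 most decreased and 4 most increased other imprinted genes called at week 12 (none increased), partners called at week 12, and the 3 genes most like each member. Genes outside this rule (Copg2, Cdkn1b and Grb14) were named after their values were seen.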

Additional observations from a re-analysis of the deposited data

How the results depend on the processing

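The number of members called with week as a block was between 7 and 9 of 9 under every alternative (8 to 9 leaving out single samples). At week 6 the count of 6 became 9 with DESeq2, 9 with the exact test, 8 without a filter and 5 with library size only, stayed 6 in number under the other alternatives, and was 4 to 6 leaving out single samples. At week 8 the count of 1 became 7 with DESeq2, 7 without a filter, 7 with limma voom, 6 with all 24 samples in 1 fit and 6 with edgeR's exact test, and 0 to 4 leaving out single samples. At week 10 the 6 became 3 with library size only and 3 without the muscle-rich libraries, and 3 to 7 leaving out single samples, and at week 12 the 5 became 3 to 6. Between weeks 6 and 12, DESeq2 called 1 member (Meg3) in FVB, and the test without a filter called 1 in PyMT. The cause of these changes was not tested.

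With library size only, the median over all genes shifted to between 0.19 and 0.32 on the log2 scale in the 5 genotype comparisons, and the calls over the weeks went from 2571 lower and 1269 higher to 2002 and 2050. The split at the single weeks moved from 964 and 534 to 654 and 779 (week 6), 951 and 533 to 745 and 830 (week 8), 1356 and 720 to 956 and 989 (week 10) and 1936 and 1156 to 1527 and 2054 (week 12). Of all genes, 1498 were called at week 6 and 692 without the muscle-rich libraries. At week 8 the 1484 became 2493 with DESeq2, 2366 with voom and 2307 with the exact test. For FVB with age the 0 became 61 with DESeq2, 43 with the exact test, 8 with the replicate block and 6 without a filter, and for the change of the difference the 0 became 11 with DESeq2, 10 with voom and 1 without the muscle-rich libraries. For PyMT with age the 58 became 182 with DESeq2, 173 with the exact test, 88 with voom, 292 without a filter, 160 with the weaker filter, 34 with the replicate block and 0 with all samples in 1 fit. Leaving out single samples gave 857 to 1606 at week 6, 513 to 1473 at week 8, 1262 to 2370 at week 10 and 0 to 119 for PyMT with age.

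The labels do not say that equal replicate numbers mark a shared litter, batch or day, and 6 of 18 correlations between same-numbered samples were above 0.1 (range -0.03 to 0.40), in 0 comparisons for all 3 pairs (the nearest, FVB week 12 with week 6, had 0.40, 0.10 and 0.32), so the numbers were not taken to pair the samples. With the replicate number as a block the member counts were 6, 1, 5 and 6 at the 4 weeks and 8 over the weeks, and 0 in the comparisons of age. Igf2 at week 6 (adjusted p = 0.0784), Cdkn1c and Plagl1 at week 10 (0.105 and 0.0632) and Peg3 over the weeks (-0.98) were then not called, while Peg3 at weeks 6 and 10 (0.0286 and 0.0169) and Mest at week 12 (0.0486) were.

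Several differences that did not pass the test changed sign. For H19 at week 10 the log2 value was 0.29 with voom and 0.61 without the muscle-rich libraries, and it was -3.07 to 0.61 leaving out single samples. In FVB with age, Igf2 was 0.33 without the muscle-rich libraries, Ndn -0.03 with library size only and -0.09 with the replicate block, and Grb10 0.05 with voom. Leaving out single samples gave ranges of -2.29 to 0.45 for Mest, -0.58 to 0.22 for Plagl1, -0.23 to 0.39 for Ndn and -0.18 to 0.08 for Grb10 in FVB with age, and of -5.05 to 2.64 for Igf2 and -1.38 to 0.08 for Ndn in PyMT with age. For the change of the genotype difference, H19 was 0.05 with library size only, 1.08 with voom, 0.70 with the replicate block and 0.54 without the muscle-rich libraries, and Peg3 -0.06 with voom. Leaving out single samples gave -0.58 to 1.46 for H19, -4.71 to 3.00 for Igf2, -0.18 to 0.49 for Peg3, -0.05 to 0.43 for Cdkn1c, -1.10 to 1.62 for Mest and -1.39 to 0.02 for Ndn.

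With 3 samples a group, the values of Igf2, Dlk1 and Ndn in PyMT rest on few counts. Libraries with packets of counts had from 0% (PyMT week 6 replicate 3) to 4.40% of mid-level genes at 0. The others had at most 0.211%, so the ranges overlapped. A p that misses the threshold does not show that levels were alike.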

Other observations

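Among imprinted genes too low to test, Dio3, which inactivates thyroid hormone and ends the cluster of Dlk1 and Meg3, ran from 0 to 66.0 normalized counts in the 12 PyMT samples (median 3.91) and from 0 to 5.79 in the 12 FVB samples (median 0). Peg12, of the Ndn cluster, ran from 0 to 12.5 in PyMT (median 0) and from 0 to 106.4 in FVB (median 24.5). Neither was compared by a test.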
